A study of Homo sapiens with 4 samples.

Results

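The nuclear genes named NDUF, which encode subunits and assembly factors of mitochondrial complex I, were examined in RKO cells with and without overexpression of HADH-S. Members were all rows of the 2 deposited RNA tables whose gene symbol starts with NDUF. They numbered 47 of 13092 genes listed in either table, and all 47 were listed in both. By the letter after NDUF there were 15 A, 11 B, 2 C, 8 S and 3 V genes, and 8 assembly factors (AF). RKO is an established human colon carcinoma line. The study compared RNA from cells of the genotype HADH-S overexpression with RNA from cells of the genotype WT (the control), with 1 library for each condition. HADH encodes a mitochondrial hydroxyacyl-CoA dehydrogenase, and the series title describes HADH-S as a nuclear isoform. The sources used here do not state the vector, the clonality of the overexpressing line or the culture conditions, nor which cultures the libraries came from. Chromatin immunoprecipitation and input libraries also belong to the series and were not analysed here. With 1 library per condition there was no replicate spread and no test, so "higher" and "lower" below describe these 2 libraries and carry no p-value. RNA was measured in bulk, where fewer cells expressing a gene and less of its RNA per cell cannot be told apart.

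Complex I oxidises NADH, passes the electrons through a flavin and a chain of iron-sulfur clusters to ubiquinone, and pumps protons across the inner mitochondrial membrane. Its matrix arm holds the NADH-binding N module and the ubiquinone-reducing Q module, and its membrane arm holds the proton channels. The channel proteins are encoded by mitochondrial DNA, whereas the core subunits of the matrix arm and all accessory subunits are encoded in the nucleus. Assembly factors help to join the modules and are absent from the finished enzyme. In cells that oxidise fatty acids, the dehydrogenase step that HADH catalyses yields NADH, which complex I consumes.

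The nuclear complex I genes were at nearly the same level in the 2 libraries, and no member differed by 2-fold. RPKM scales read counts to the length of the transcript and the size of the library, and 46 members reached a mean of 1 RPKM over both libraries. Of these, 27 were higher with HADH-S and 19 lower, where 52.2% of all genes were higher. Differences are on the log2(RPKM + 1) scale, HADH-S minus control. The members' median difference was 0.03, against 0.01 over all 10331 genes at that level, and their values ranged from -0.319 for NDUFS4 to 0.49 for NDUFAF3. At a 2-fold limit, 0 members were higher, where the share over all genes was 0.3%, and 0 were lower, where it was 0.0484%. At a smaller limit of 0.322 on the log2 scale, 2 members were higher (NDUFAF3 and NDUFS7), or 4.35%, against 7.98% of all genes, and 0 were lower, against 3.65%, with NDUFS4 just inside the limit.

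Ratios of RPKM carry 95% exact conditional (Clopper-Pearson) intervals from the read counts, which cover counting error only. This interval lay above 1 for 8 of the 46 members, or 17.4%, against 13.8% of all genes. It lay below 1 for 3 members, or 6.52%, against 11.6%. In either direction the share was 23.9% of members and 25.4% of all genes, so intervals that exclude 1 were about as frequent among complex I genes as elsewhere. Measured from a ratio of 1, the members' log ratios had a root mean square of 1.59 times their counting error, and those of all genes 1.91 times. This measure includes any shift common to the genes and grows with read depth, which was not matched between members and all genes. For 26 members, with ratios from 0.907 to 1.13, the whole interval lay within the smaller limit on either side. RefSeq lists pseudogenes named after 22 members, and 13 members overlap another coding gene, so part of their reads may belong elsewhere; of the members whose interval excludes 1, NDUFA3, NDUFA4, NDUFAF1 and NDUFB2 have such pseudogenes and NDUFA3 and NDUFAF3 overlap a gene.

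**Figure D1:**
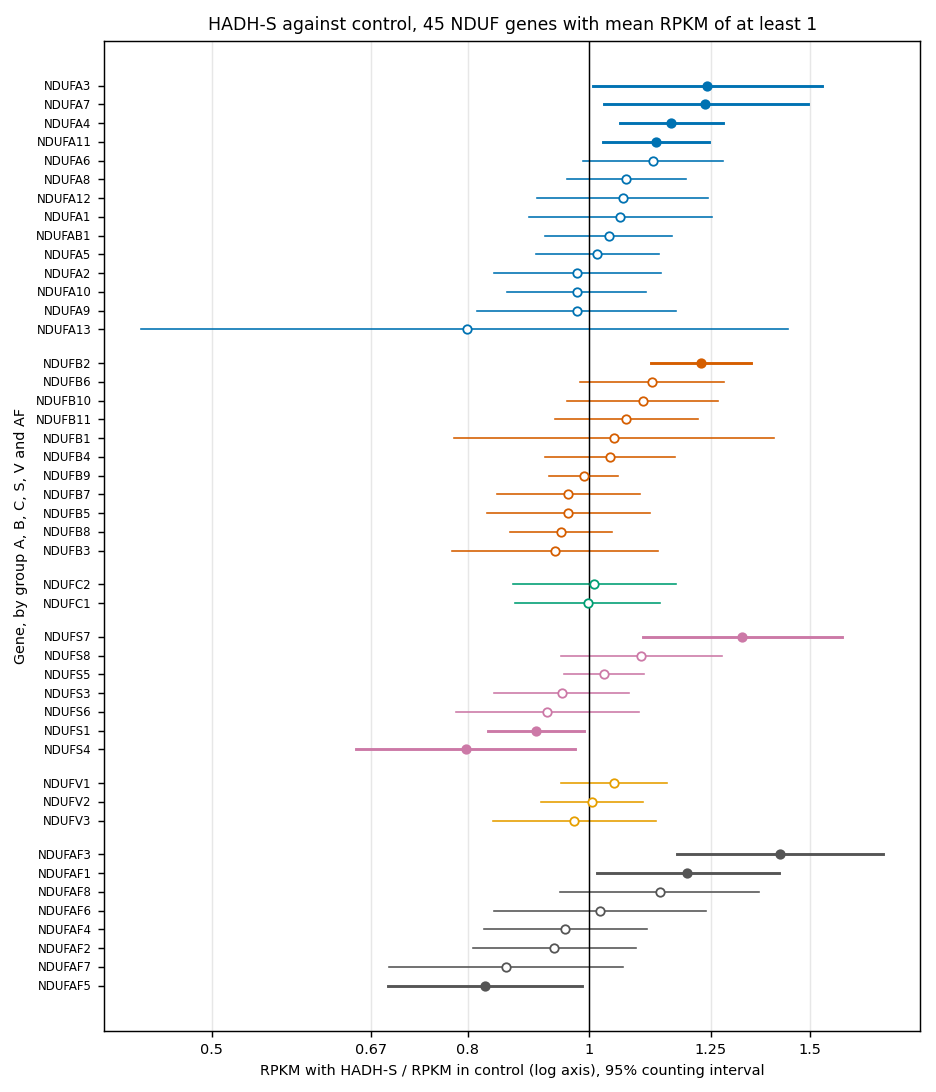
Ratio of RPKM with HADH-S to RPKM in the control (log axis) for 45 NDUF genes, with 95% counting intervals; filled points mark intervals that exclude 1, and colours mark the groups A, B, C, S, V and AF. The points lie between 0.797 (NDUFS4) and 1.42 (NDUFAF3), and 34 of the intervals include 1.

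Added over all 47 members, the HADH-S library held 23792 reads and the control library 22366. That was 0.342% of the reads in listed genes (exact binomial 95% interval 0.337% to 0.346%) against 0.330% (0.326% to 0.335%), a ratio of 1.03 with a counting interval of 1.02 to 1.05. The interval included 1 after rescaling to equal RPKM totals (1.02, 0.999 to 1.04) and without the members that have a pseudogene or overlap a coding gene (1.02, 0.985 to 1.05). It stayed above 1 after rescaling to a median log2 value of 0 (1.027, 1.008 to 1.046) or to equal 75th percentiles (1.024, 1.005 to 1.042). Without NDUFA4 and NDUFA4L2 it also stayed above 1 (1.030, 1.011 to 1.049). The targeted gene checks the labels: HADH had 54.4 RPKM in the overexpressing cells against 26.5, a ratio of 2.05 (1.79 to 2.35). The genes listed for the HADH-S and control libraries held 6963608 and 6773421 reads, and reads of genes that are not listed are not in these totals. Of the epithelial and colon markers, KRT18 (93.8 and 91.7 RPKM), EPCAM (9.57 and 8.20), CDX2 (4.37 and 3.60) and KRT8 (2.81 and 2.54) were listed. The epithelial markers KRT19, CDH1, VIL1, LGALS4 and CDH17 were missing from both tables. Of 6 fibroblast markers 0 reached a mean RPKM of 1. EGFL7 was the 1 listed gene of 5 endothelial markers, at 58.6 against 48.6 RPKM (ratio 1.21, 1.09 to 1.33). Of 6 leukocyte markers 2 were listed, LCP1 at 222 against 249.2 RPKM (0.892, 0.861 to 0.924) and CORO1A at 6.85 against 7.45 RPKM (0.919, 0.677 to 1.248). The defining markers PECAM1, VWF and PTPRC were missing from both tables. For none of these markers does a missing row show that the gene had no reads.

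The levels of complex I genes spanned almost 100-fold, although the subunits are held in a single complex. In the control the highest member was NDUFB9, a subunit of the distal membrane arm, at 414 RPKM, and the lowest above the filter was NDUFA9, a subunit at the junction of both arms, at 4.28 RPKM. With HADH-S the same genes stood at 409 and 4.18 RPKM, so the highest exceeded the lowest 98.0-fold with HADH-S and 96.7-fold in the control. NDUFS5, a membrane arm subunit, came next to NDUFB9 with 395 and 385 RPKM, followed by NDUFB8 with 187 and 197 RPKM and NDUFV2 with 140 and 139 RPKM. Between neighbours in the order, the counting interval of the level ratio lay above 1 for 10 of 45 pairs in the control and 7 of 45 with HADH-S, so most neighbours were not separable at this depth. The order was nearly the same in both libraries (Spearman's rho 0.989 across 47 genes, which share both libraries and their transcript models).

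**Figure D2:**
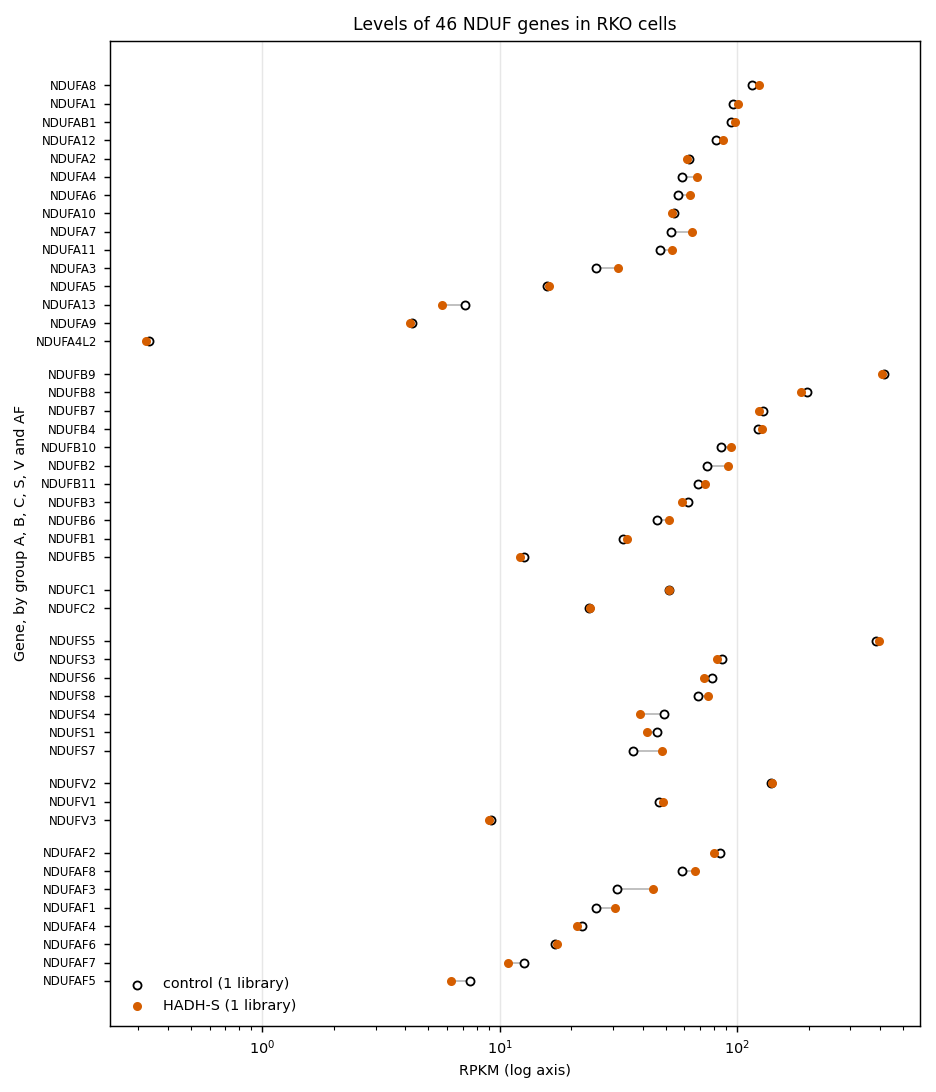
RPKM (log axis) of 46 NDUF genes in the control library (open circles) and the HADH-S library (filled circles), by group and in order of the control level. NDUFB9 and NDUFS5 lie highest, and NDUFA4L2 lies lowest, below 1 RPKM in both libraries.

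These levels rest on 1 listed transcript per gene, of 417 to 8356 nt. Longer listed transcripts went with lower RPKM (Spearman's rho -0.588 in the control and -0.558 with HADH-S, 47 genes). NDUFA9 was listed with 8356 nt, of which 1131 nt were coding, and NDUFA5, a Q module subunit, with 5608 nt, of which 348 nt were coding. Per kilobase of coding sequence, a scale chosen after seeing the data, the control level of NDUFA5 was 255 and it stood at position 6 instead of 40. On that scale NDUFS5 was highest at 659 and NDUFA13 lowest above the filter at 9.19. NDUFA13, also known as GRIM-19, was low on both scales, with 28 reads in the control and 23 with HADH-S.

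Among the core subunits, which together but not each carry the flavin and the iron-sulfur clusters, NDUFS7 differed most. NDUFS7 (ENSG00000115286, chr19:1383907-1395584 in GRCh38.p14), the Q module subunit that binds the terminal cluster N2, was at 48.3 RPKM in the HADH-S library against 36.5 in the control library, from 283 and 208 reads, a ratio of 1.32 (1.10 to 1.59). NDUFS1, which carries clusters of the N module, went the other way with 41.7 against 45.99 RPKM, from 976 and 1047 reads, a ratio of 0.907 (0.830 to 0.990). The intervals of the other core subunits described here include 1. NDUFV1, which binds NADH and the flavin, was at 49.0 against 46.8 RPKM (ratio 1.05, 0.949 to 1.15). NDUFV2, which holds a cluster beside the flavin, was at 140 against 139 RPKM (1.00, 0.915 to 1.10). In the Q module, levels were 81.9 against 86.2 RPKM for NDUFS3 (0.9503, 0.839 to 1.08) and 75.6 against 68.7 for NDUFS8 (1.10, 0.949 to 1.28). The core subunits thus lay on both sides of 1, with a median log2 value of 0.06.

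The remaining S genes encode accessory subunits, and NDUFS4 was the member with the lowest ratio. NDUFS4 (ENSG00000164258, chr5:53560639-53683338), an N module subunit whose loss causes Leigh syndrome, had 39.1 RPKM in the HADH-S library against 49.0, from 182 and 222 reads, a ratio of 0.797 (0.652 to 0.974). Its interval and that of NDUFS1 included 1 when set against the median of their chromosomes. Its N module neighbour NDUFS6 was at 72.3 against 78.1 RPKM, and NDUFS5 of the membrane arm had a ratio of 1.03 (0.954 to 1.10). Over the 8 S genes the median log2 value was -0.02, with 4 members above 0 (52.2% of all genes).

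Apart from NDUFA4, described below, the measured A genes encode accessory subunits spread over both arms. Of the 14 measured, 10 were above 0 (52.2% of all genes), 4 had an interval above 1 (13.8% of all genes) and 0 had one below 1 (11.6%), with a median log2 value of 0.08. NDUFA4 is among the 10 and the 4. Without NDUFA4 and NDUFA4L2 the A median was 0.08, and 7 members of all groups had an interval above 1. NDUFA3 (chr19:54102855-54107568), a small membrane arm subunit, was at 31.6 against 25.5 RPKM, from 208 and 163 reads (ratio 1.24, 1.01 to 1.53). NDUFA7 (chr19:8308595-8321375), of the N module, was at 64.9 against 52.4 RPKM, from 262 and 206 reads (1.24, 1.03 to 1.49). NDUFA11 (chr19:5891229-5903790), a membrane arm subunit, was at 53.2 against 47.1 RPKM, from 892 and 768 reads (1.13, 1.02 to 1.246). These 3 genes lie on chromosome 19, as NDUFS7 does, and their intervals included 1 when set against the median of their chromosome. Those of NDUFA3 and NDUFA7 also did so without the trend with transcript length.

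NDUFA4 (chr7:10931943-10940153) was at 68.03 against 58.5 RPKM, from 964 and 807 reads (ratio 1.16, 1.06 to 1.28). Despite its name it is now counted as a subunit of complex IV, and RefSeq lists it as COXFA4. Its paralog NDUFA4L2, a gene known to be induced in hypoxia, had 2 reads in each library (0.325 and 0.334 RPKM), which is under the 3 reads that a count of 0 allows, and no ratio is given. NDUFA13 had the lowest value of the A genes, at 5.73 against 7.18 RPKM, with a wide interval of 0.440 to 1.44 around a ratio of 0.799. NDUFA8 was the highest A gene, at 124 against 116 RPKM (1.07, 0.959 to 1.19). The ratios of NDUFA1, NDUFA2, NDUFA5, NDUFA6, NDUFA9, NDUFA10 and NDUFA12 lay between 0.977 and 1.12, all with intervals that include 1. NDUFAB1, the mitochondrial acyl carrier protein that also serves fatty acid and lipoic acid synthesis in the organelle, was at 98.0 against 94.6 RPKM (1.04, 0.922 to 1.16).

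Among the B genes, which encode accessory subunits of the distal membrane arm, 1 of 11 had an interval that excludes 1 (25.4% of all genes). NDUFB2 (chr7:140696708-140706643) had 92.0 RPKM in the HADH-S library against 74.97, from 1067 and 846 reads, a ratio of 1.23 (1.12 to 1.34). The other 10 had ratios between 0.939 and 1.12. The best covered of all members, NDUFB9, had 1970 against 1936 reads and a ratio of 0.990 (0.929 to 1.05). The lowest B gene, NDUFB5, was at 12.1 against 12.6 RPKM. The 11 genes had a median log2 value of 0.05, with 6 above 0 (52.2% of all genes).

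By median log2 value, the C genes (0.004 over 2 genes) and V genes (0.006 over 3) were the closest to equal. By pooled reads the S genes, with a ratio of 1.002, were as close as the C genes. NDUFC1 was at 51.6 against 51.8 RPKM (ratio 0.997, 0.872 to 1.14) and NDUFC2, its partner in the proximal membrane arm, at 23.9 against 23.7 RPKM (1.01, 0.868 to 1.17). NDUFV3, an accessory subunit of the N module and the lowest V gene, was at 8.98 against 9.23 RPKM (0.973, 0.838 to 1.13).

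The assembly factors held the member with the highest ratio and spread to both sides. NDUFAF3 (ENSG00000178057, chr3:49020452-49023495), which acts with NDUFAF4 early in assembly on the Q module, had 44.1 RPKM in the HADH-S library against 31.1, from 277 and 190 reads, a ratio of 1.42 (1.17 to 1.71). Its partner NDUFAF4 was at 21.2 against 22.1 RPKM (0.957, 0.824 to 1.11). NDUFAF3 overlaps DALRD3, and without a stated strand setting their reads cannot be told apart at the overlap; DALRD3 was at 10.02 against 10.8 RPKM (0.927, 0.717 to 1.20). NDUFA3 likewise overlaps TFPT, at 6.44 against 4.90 RPKM (1.31, 0.856 to 2.03).

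NDUFAF1 (chr15:41387353-41403026), which with ECSIT, ACAD9 and TMEM126B builds a membrane arm intermediate, was at 30.5 against 25.4 RPKM, from 320 and 260 reads (ratio 1.20, 1.01 to 1.42); its interval included 1 without the trend with transcript length and after rescaling to equal RPKM totals. NDUFAF5 (chr20:13785028-13821580), which hydroxylates an arginine of NDUFS7, was lower, at 6.22 against 7.53 RPKM, from 236 and 278 reads (0.826, 0.691 to 0.986), with an interval that included 1 without the length trend. NDUFAF5 and NDUFS7 thus lay on opposite sides of 1. NDUFAF8, which stabilises NDUFAF5, was at 66.6 against 58.5 RPKM (1.14, 0.948 to 1.37). NDUFAF7, an arginine methyltransferase, was at 10.8 against 12.6 RPKM (0.858, 0.692 to 1.06). NDUFAF2, a paralog of the subunit NDUFA12 and the highest assembly factor, was at 79.5 against 84.8 RPKM (0.938, 0.807 to 1.09). NDUFAF6 had a ratio of 1.02. Over the 8 factors, 4 were above 0 (52.2% of all genes) and the median log2 value was -0.02.

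By position in the enzyme, the N module genes had a median log2 value of -0.03 (4 of 9 above 0), the Q module 0.09 (4 of 5), the proximal membrane arm 0.04 (6 of 9) and the distal membrane arm 0.05 (6 of 11). The share above 0 over all genes was 52.2%. Differences between the medians of these modules were not tested.

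The other genes of the pathway showed values of the same size. Of the mitochondrially encoded subunits, 3 of 7 were listed, at 2507 against 2348 RPKM for MT-ND6 (ratio 1.07, 1.04 to 1.10), 1877 against 1785 for MT-ND5 (1.05, 1.03 to 1.07) and 6148 against 6180 for MT-ND4L (0.995, 0.970 to 1.02). Of 4 other listed mitochondrial genes, MT-ATP8 had a ratio of 1.08 (1.06 to 1.10) and MT-CO2 1.07 (1.05 to 1.08). Among 12 complex I assembly factors without an NDUF name, 7 were above 0 (52.2% of all genes), with a median of 0.04. Of the 12, 2 had an interval above 1 (13.8% of all genes) and 0 had one below 1 (11.6%). TMEM186, a factor of the NDUFAF1 intermediate, was at 15.3 against 11.5 RPKM (1.33, 1.03 to 1.71) and DMAC2, a factor of the distal membrane arm, at 33.6 against 27.7 RPKM (1.21, 1.00 to 1.47).

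The other nuclear-encoded complexes had medians of 0.00 for complex II (4 of 8 above 0), 0.07 for complex III (11 of 15), 0.03 for complex IV (20 of 28) and 0.06 for complex V (12 of 20), beside 0.03 for the 46 NDUF genes. The share above 0 over all genes was 52.2%. In complex II, the assembly factor SDHAF4 was at 1.46 against 2.496 RPKM, from 12 and 20 reads (ratio 0.584, 0.260 to 1.254), and SDHAF1 at 17.0 against 15.3 (1.11, 0.856 to 1.43). In complex III, the subunit UQCR10 was at 69.8 against 58.2 RPKM (1.20, 1.04 to 1.38) and the factor UQCC2 at 21.2 against 18.4 (1.16, 0.931 to 1.43). In complex IV, the assembly factor SURF1 was at 17.8 against 13.1 RPKM (1.35, 1.04 to 1.78), while COX10, which makes heme O, was at 9.61 against 12.5 (0.767, 0.632 to 0.9297). In complex V, the subunit ATP5ME was at 183 against 135 RPKM (1.36, 1.16 to 1.59) and ATP5PF at 120 against 98.7 (1.22, 1.05 to 1.41).

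**Figure D3:**
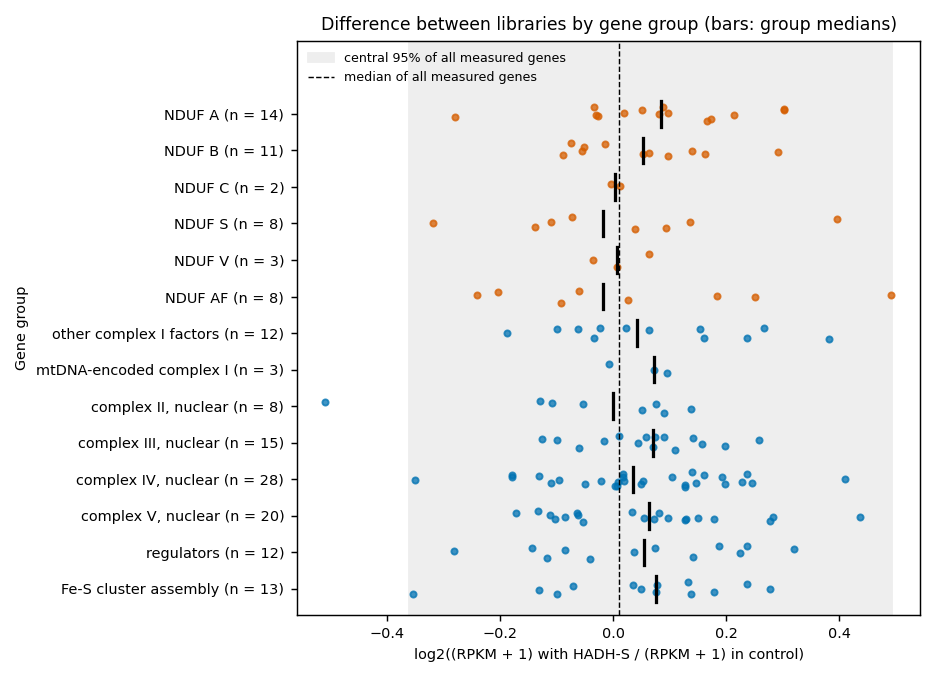
Difference between the libraries on the log2(RPKM + 1) scale for each gene (points, jittered vertically) of the NDUF groups (orange) and of related lists (blue), with group medians as black bars, the median of all 10331 measured genes as a dashed line and their central 95% (-0.36 to 0.49) shaded. Group medians lie between -0.02 (S and AF) and 0.08 (A and Fe-S cluster assembly), and of the points shown only that of SDHAF4 at -0.51 lies outside the shading.

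Regulators of respiratory genes were split. Of 12 measured, 7 were above 0 (52.2% of all genes), 3 had an interval above 1 (13.8% of all genes) and 1 had one below 1 (11.6%). The nuclear receptor ESRRA was at 38.6 against 30.7 RPKM (ratio 1.26, 1.11 to 1.42), and the coactivator PPARGC1B at 1.603 against 2.17 RPKM (0.740, 0.578 to 0.947). The coactivator PPARGC1A did not reach a mean RPKM of 1. Among 13 genes of iron-sulfur cluster assembly, which supplies the clusters of the core subunits, 9 were above 0, 0 had an interval above 1 and 1 had one below 1, beside the same shares over all genes. That gene was the co-chaperone HSCB, at 14.4 against 18.7 RPKM (0.771, 0.596 to 0.996), while the ferredoxin FDX2 stood at 28.7 against 23.5 (1.22, 0.987 to 1.51).

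NDUF promoters are known to bind NRF1, ETS factors such as GABPA, and YY1. RefSeq promoter windows of GRCh38.p14, from 250 bases before to 50 after a start site, were matched for 41 of the 47 members, with 54 windows. The NRF1 motif, the letters GCGCA, any base and then GCGC, was found on either strand in 7 of 41 members, or 17.1%, against 9.67% of 15843 coding genes. The YY1 motif AAGATGGCG was found in 7 members, or 17.1%, against 3.21% of coding genes, and the ETS motif CCGGAAGT in 2 members, or 4.88%, against 6.97%. The GC box GGGCGG was found in 61.0% of members and 64.3% of coding genes. No test was run on these shares, and a match is a description of letters, not a binding site. NDUFA9 held both the NRF1 and the YY1 motif, and the motif letters do not overlap there.

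The stretches of 30 bases shown here come from the members whose counting interval excluded 1, since the same letters stood in promoter windows of genes on both sides of 1. Capitals mark the motif, and each stretch is written 5′ to 3′ on the gene's strand. At NDUFA11 and NDUFS1 the motif matched on the opposite strand, so the capitals there are its reverse complement. The match at NDUFAF5 reads the same on both strands and spans the start site. The NRF1 letters stood at NDUFA3 (chr19:54102675-54102704 and chr19:54102772-54102801, plus strand), NDUFA11 (chr19:5903869-5903898, minus strand) and NDUFAF5 (chr20:13785014-13785043, plus strand). NDUFA3 and NDUFA11 were higher with HADH-S and NDUFAF5 was lower.
NDUFA3, first NRF1 match: ctgcgcgagtGCGCACGCGCaggctccgaa
NDUFA3, second NRF1 match: gtgctccaggGCGCACGCGCagccctggga
NDUFA11, NRF1 match: ccggtccccgGCGCGTGCGCgcgatccatg
NDUFAF5, NRF1 match: agccgcgctgGCGCATGCGCacaaaaagcg

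The YY1 letters stood at NDUFS7 (chr19:1383914-1383943, plus strand) and NDUFA7 (chr19:8321342-8321371, minus strand), both higher with HADH-S, and at NDUFS4 (chr5:53560650-53560679, plus strand), which had the lowest ratio of all members. These YY1 matches lie after the start site, inside the genes. The motif contains the letters ATG. In 4 of the 7 members with a match, NDUFS4 and NDUFA7 among them, that ATG lay at the same distance from the start site as the coding start of the listed transcript lies from its first base. ETS letters stood at NDUFS1 (chr2:206159584-206159613, minus strand), also lower.
NDUFS7, YY1 match: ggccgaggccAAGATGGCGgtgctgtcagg
NDUFA7, YY1 match: tcgcggacggAAGATGGCGtccgccacccg
NDUFS4, YY1 match: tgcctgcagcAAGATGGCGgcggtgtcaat
NDUFS1, ETS match: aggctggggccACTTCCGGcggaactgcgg

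Transcript length and chromosome moved with the difference between the libraries over all genes, and complex I genes are not spread evenly over either. The listed transcripts of the 46 members had a median of 922 nt, against 3148 nt over all 10331 genes, and 32 of the 46 were among the shortest 20%. Over all genes the median log2 value went from 0.06 in the shortest 20% (207 to 1735 nt) to -0.05 in the longest 20% (5432 to 109224 nt). The 32 short members had a median of 0.06 and the 14 longer ones -0.01. When the linear trend with log length was removed, the members' median was -0.01, with 20 of 46 above 0.

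By chromosome, a split made after the values were seen, genes on chromosome 19 had the highest median of 23 chromosomes, 0.09 over 751 genes, of which 25.6% had an interval above 1. Of the 6 members on chromosome 19 (NDUFS7, NDUFA3, NDUFA7, NDUFA11, NDUFB7 and NDUFA13), 4 had an interval above 1, which is 4 of the 8 such members. The 40 members elsewhere had a median of 0.02, with 4 intervals above 1 and 3 below, beside 13.8% and 11.6% of all genes. When each gene was set against the median of its chromosome, 5 members had an interval above 1 and 1 had one below, and NDUFA3, NDUFA7, NDUFA11, NDUFS1 and NDUFS4 no longer did. Promoter GC content moved in the same direction over the 8563 genes with a RefSeq window, from a median of -0.02 in the lowest 20% to 0.03 in the highest, though 14 of the 40 members with a value were in that lowest bin. Of the 14 members in that lowest bin, 2 had an interval above 1 (NDUFA4 and NDUFAF1) and 2 had one below (NDUFS4 and NDUFAF5). Of the 9 in the middle bin, 5 had one above and 1 had one below (NDUFS1). Over all genes these shares were 13.8% and 11.6%, and they were not computed for each bin. The part of length, chromosome and base composition in these values was not tested.

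**Figure D4:**
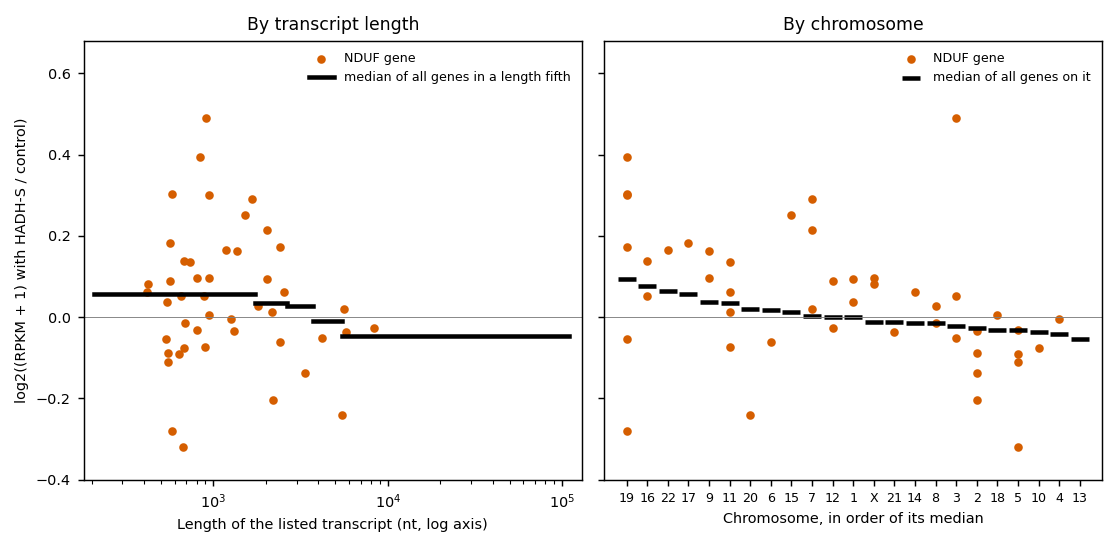
Difference between the libraries for 46 NDUF genes (orange points) against the length of the listed transcript (left, log axis) and by chromosome (right, ordered by the median of all genes on it). Black bars are medians of all measured genes, which go from 0.06 to -0.05 over 5 length bins and are highest, at 0.09, on chromosome 19, where 4 of the 6 members lie above that median.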

How the data were processed

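RNA was measured in 2 libraries of RKO cells, 1 per condition. The authors deposited RPKM per gene, per the file headers. Per the submitters' processing notes, shared by all samples, fastp 0.23.2, SAMtools 1.9, MACS2 1.4.2, ChIPseeker and GRCh38 were used. How the RNA reads were aligned and counted, and with which strand setting, is not given in the sources used here. RPKM times the listed transcript length gave whole reads for 100% of values in both libraries, within a tolerance of 0.01 reads. Neither table lists a gene with 0 reads, and a gene in 1 table only was taken as 0 in the other. Absence from both tables need not mean that a gene had no reads. MT-ND1, MT-ND4, MT-CYB and MT-CO3 were absent, while MT-CO1 had 16892 RPKM with HADH-S and 16952 in the control. Why genes were left out is not given in the sources used here. Log2 values used a pseudocount of 1 at a mean RPKM of at least 1, which understates changes of low genes. Since reads carry no molecular identifiers, intervals treat copies of a molecule as separate reads. Python 3.11.15, SciPy 1.17.1 and pandas 2.3.3 were used, and the calculations were tested on simulated reads. All 47 members matched RefSeq, where 2 of them (NDUFA4 and NDUFA4L2) have another symbol. The values of 1 member are counted in the totals and medians and are not reported here.

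Members, gene lists, motifs and limits were chosen with earlier results of these data known. Named in full were members whose interval excludes 1, the 5 highest and 5 lowest log2 values, the highest and lowest level per group, the core subunits, and the 2 largest absolute values of each other list. Alternatives were other pseudocounts, filters and folds, 3 rescalings, removal of a length trend, means, 2 reduced member sets and, added after seeing the data, chromosome medians and levels per coding kilobase.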

Additional observations from a re-analysis of the deposited data

How the results depend on the processing

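No paired analysis was possible because each condition has 1 library, and for the same reason no replicate could be left out. Over 459 values from 10 alternatives, no log2 value of the 46 members moved by more than the wider side of its counting interval. The changes of filter among these cannot alter a gene's log2 value, so those values were fixed by construction. The 11 members whose interval excludes 1 kept their side of 0 in the 10 alternatives. A change of pseudocount or filter cannot alter that side. The 3 rescalings moved genes by far less than the smallest absolute value among these members, that of NDUFS1 at -0.138. Only the length trend and the chromosome medians could therefore have changed a side. Of the members whose interval includes 1, 11 were on the other side of 0 without the length trend and 6 relative to chromosome medians. The members' median was -0.0145 without the length trend, against 0.03. The A, B and S medians were then 0.0253, -0.0353 and -0.0965. In a reduced set, the 31 members that have a pseudogene named after them or overlap a coding gene were left out. Of the B genes this kept NDUFB7 only, so the B value of -0.0551 there is that of a single gene. Members higher by 0.322 on the log2 scale numbered 0 at a fold of 1.5, and 1 without the length trend, without those 31 members and relative to chromosome medians. Without those 31 members the count fell because NDUFAF3 was itself left out. Members lower by that limit numbered 1 with pseudocounts of 0.1 and 0.5, with each of the 3 rescalings and relative to chromosome medians, and 2 without the length trend. Intervals above 1 numbered 5 without the length trend and relative to chromosome medians, and intervals below 1 numbered 1 relative to chromosome medians. In the reduced set 3 intervals lay above 1. The others (NDUFA3, NDUFA4, NDUFAF1, NDUFAF3 and NDUFB2) belonged to members left out, and no member that was kept lost its call. Without the length trend NDUFA3, NDUFA7 and NDUFAF1 no longer had an interval above 1 and NDUFAF5 no longer one below 1, while NDUFB8 and NDUFB9 then had one below 1, which made 4. Rescaling to equal RPKM totals left 6 members with an interval above 1, without NDUFA3 and NDUFAF1. Per coding kilobase the highest level exceeded the lowest 71.7-fold in the control and 92.2-fold with HADH-S. The lowest above the filter was then NDUFA13 in both libraries, with 28 and 23 reads.

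Over all genes, the number higher by 2-fold was 69 with a pseudocount of 0.1, 8 with 5 and 12 at a mean RPKM of at least 5, against 31. The number lower was 15 with a pseudocount of 0.1, 8 with 0.5, 9 without a filter, and 0 with a pseudocount of 5 and at a mean RPKM of at least 5, against 5. At 0.322 on the log2 scale, 271 were higher with a pseudocount of 5 and 469 at a mean RPKM of at least 5, against 824, and 603, 64 and 182 were lower with a pseudocount of 0.1, with 5 and at a mean RPKM of at least 5, against 377. A larger pseudocount shrinks low genes by construction, and the other causes were not tested. Members at the filter had 23 to 1970 reads per library, so a difference of that size was within counting error for the least covered, such as NDUFA13.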
